A study of Mus musculus with 8 samples.

Results

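Of the 5671 DSB-seq peaks of Chd1 KO mouse ES cells, 196 (3.46%, Wilson 95% interval 3.01 to 3.96) lay at divergent promoters, where 2 protein-coding genes start close together and are read away from each other. A peak was counted when its summit, the base with the most reads, lay within 1 kb of the TSSs of 2 different protein-coding genes in head-to-head order. The TSSs were at most 1 kb apart, with the TSS of the gene on the minus strand at the lower coordinate (GENCODE M1 transcripts, mouse genome build mm9). The 196 peaks belonged to 190 gene pairs with 375 genes. Of these peaks, 5 met the rule with 2 pairs, because the annotation lists 1 gene of the pair under 2 identifiers.

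DSB-seq tags DNA ends inside fixed nuclei and sequences the captured fragments, to map double-strand breaks (DSBs) along the genome. The study compared established Chd1 KO ES cells (Chd1delta/delta) with control ES cells (Chd1fl/delta), which the sample names call WT. Chd1 encodes a chromatin remodeler that acts at transcribed genes. Both genotypes carry 1 deleted Chd1 allele, and they differ in the second, which is deleted in Chd1 KO and floxed in control. Each genotype had 2 biological replicates, which the authors combined before they called peaks, so each genotype gave 1 list and no value below has a replicate error. The lowest local background, which follows the depth of a library, was 3.18 reads in Chd1 KO and 2.95 in control. The lists hold no expression values, so the ES cell identity could not be checked against marker genes.

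Divergent promoters are common in mammalian genomes and often serve housekeeping genes, among them genes of DNA repair, mitochondria and RNA processing. The pair shares a single CpG-rich, nucleosome-depleted region, from which separate preinitiation complexes start transcription in opposite directions. The region between the TSSs is therefore upstream of both genes, and the DNA on either side of it lies inside a gene.

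The bases between the TSSs are shown first for the gene pairs with the strongest peaks, because they lie upstream of both genes. Sequences run 5′ to 3′ on the plus strand of mm9, from the base after the TSS of the minus-strand gene to the base before the TSS of the plus-strand gene. Capitals mark matches, on either strand, to the letters of 9 promoter motifs, which here were GGGCGG of SP1, CCGGAAG of ETS factors, GCATGCGC of NRF1 and TGACGTCA of CREB.
Zswim7/Ttc19 (chr11:62094878-62094981): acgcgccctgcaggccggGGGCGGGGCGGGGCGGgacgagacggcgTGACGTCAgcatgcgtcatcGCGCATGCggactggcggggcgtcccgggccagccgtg
Wfdc3/Dnttip1 (chr2:164571432-164571482): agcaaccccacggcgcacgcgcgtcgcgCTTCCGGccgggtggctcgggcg
Glmn/Rpap2 (chr5:108026659-108026714): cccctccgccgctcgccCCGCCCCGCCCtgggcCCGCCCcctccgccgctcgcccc
Tmem199/Poldip2 (chr11:78325675-78325694): ctggaggagcccacgcggcc
Gfer/Noxo1 (chr17:24833102-24833178): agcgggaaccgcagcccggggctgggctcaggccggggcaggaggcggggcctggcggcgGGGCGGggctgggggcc

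The Zswim7/Ttc19 interval held 5 matches, of which 3 were SP1 matches, with 1 each of CREB and NRF1. The Glmn/Rpap2 interval was 91.1% G and C and held 3 SP1 matches, whereas the Wfdc3/Dnttip1 interval held 1 ETS match. The 20 bp between Tmem199 and Poldip2 held none of the motifs. The longest run of G and C without A or T under each peak is shown next, because of the sequence features measured, the length of such runs separated pairs with and without a peak most clearly. The run is in capitals and its flanks are in lower case, again on the plus strand.
Zswim7/Ttc19 (chr11:62095210-62095239): CCGGGCGGGGCCGGCCCGGCGGGGGCGGGG
1500011H22Rik/Gpn3 (chr5:122821825-122821853): ctCCCCCCCCCCCCCCCCCCCCCCCCGtc
Znfx1/1500012F01Rik (chr2:166888395-166888423): ggggaGGGCGCGGCGGGGGGCGGGttgac
Wfdc3/Dnttip1 (chr2:164571577-164571605): gcaGCCGCGGGGCCCCGGCGGGGCGGagc
Glmn/Rpap2 (chr5:108026667-108026691): ccgctCGCCCCGCCCCGCCCtgggc
Tmem199/Poldip2 (chr11:78325685-78325713): ccaCGCGGCCGCGGGGGGCGGGCCCGagg
Gfer/Noxo1 (chr17:24832845-24832873): accttGCGGCGCCGGGGCCGCGGCagggg
Map4k5/Atl1 (chr12:70994161-70994187): ctggaCGCCGCCGCGCCCCGCCtccca

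These runs were 15 to 30 bp long. In Tmem199/Poldip2 the centre of the run lay 3 bp from the summit, in Map4k5/Atl1 5 bp and in Znfx1/1500012F01Rik 9 bp. In Gfer/Noxo1 it lay 329 bp away, in the gene opposite to the one that held the summit. The run of 1500011H22Rik/Gpn3 was 25 bp long and consisted of C except for its last base.

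The question was first whether breaks at divergent promoters were found in either genotype. No peak of the control list met the rule, 0 of 54, which allows a share of up to 5.56%. None of the 1081 head-to-head pairs of the annotation had a control peak within 1 kb of its midpoint (up to 0.278%), and none had a control peak within 10 kb. In Chd1 KO, 197 of the 1081 pairs had a peak within 1 kb of the midpoint. The lists were called with separate p-value limits, and the lowest −log10 p-value was 7.13 in the control list. Of the 196 member peaks, 173 reached that level. No test between genotypes was possible with 1 combined list each.

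The strength of the member peaks spanned a narrow range. Reads at the summit, recovered from the deposited fold enrichment and p-value, numbered 15 to 35 (median 21) over a local background of 3.18 to 6.12 reads (median 3.80). The fold enrichment, which is reads plus 1 over background plus 1, ranged from 2.996 to 7.34, with a median of 4.53 (interval 4.32 to 4.57, n = 196) and quartiles of 4.04 and 5.10. A fold enrichment of 5 or more was found for 58 members.

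The strongest member lay at Zswim7/Ttc19, at chr11:62094847-62095328. It had 31 reads over a background of 3.36, a fold enrichment of 7.34. Zswim7 acts in homologous recombination, and Ttc19 is an assembly factor of respiratory complex III. The summit lay 191 bp inside Ttc19, in a coding exon, and the TSSs were 105 bp apart.
The next pair was 1500011H22Rik/Gpn3 (chr5:122821691-122822025), with 32 reads over 4.04 and a fold enrichment of 6.55. Gpn3 is a GTPase needed for nuclear import of RNA Pol II. The summit lay on the other side, in an intron of 1500011H22Rik.
Znfx1/1500012F01Rik (chr2:166888158-166888555) had 30 reads over 3.92 and a fold enrichment of 6.30, with its summit between the paired TSSs, 16 bp outside the nearer one. An alternative first exon of Znfx1, a helicase of antiviral defense, spans this position. 
Wfdc3/Dnttip1 (chr2:164571433-164571827) had the highest number of reads of these 8 pairs, 35 over 4.76, and a fold enrichment of 6.25. Dnttip1 is a subunit of a histone deacetylase complex, and the summit lay 165 bp inside it, in a coding exon.
At Glmn/Rpap2 (chr5:108026437-108026819) there were 25 reads over 3.18, a fold enrichment of 6.22, with the summit in the 5′ untranslated exon of Glmn, a regulator of cullin ubiquitin ligases. Rpap2 is a phosphatase of the RNA Pol II tail.
At Tmem199/Poldip2 (chr11:78325631-78325848) there were 25 reads over 3.20, a fold enrichment of 6.19, and the summit lay 1 bp inside Poldip2, whose product binds a subunit of DNA polymerase delta.
At Gfer/Noxo1 (chr17:24832830-24833345) there were 29 reads over 3.88, a fold enrichment of 6.15, and the summit lay 9 bp inside Noxo1, an organizer of NADPH oxidase.
Nos1ap/Gm10174 (chr1:172519593-172520209) had 31 reads over 4.22 and a fold enrichment of 6.13, with the summit in a coding exon of the predicted gene Gm10174. Nos1ap, an adaptor of neuronal nitric oxide synthase, was 257 kb long, and Gm10174 was 0.858 kb long.
In 7 of these 8 pairs the summit lay inside a gene rather than between the TSSs. The weakest member, at Fbxl6/Gpr172b, had 15 reads over 4.34 and a fold enrichment of 2.996.

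The member peaks were compared with 2688 peaks at single promoters, which are TSSs of protein-coding genes with no TSS of another protein-coding gene within 2 kb. All intervals for such comparisons cover counting error over regions within 1 combined library. The median fold enrichment was 4.53 at members and 4.54 at single promoters, and a member was higher in 48.2% of comparisons between a member and a single-promoter peak (44.1 to 52.4, where 50% means no difference). Median reads were 21 in both, and a member was higher in 46.4% of comparisons (42.3 to 50.5). Neither interval excluded 50%. Member peaks were narrower, with a median width of 296.5 bp (200 to 670) against 327 bp at single promoters, and were the wider ones in 43.9% of comparisons (39.9 to 47.9). A difference in reads or fold enrichment between peaks at paired and single promoters was not detectable.

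**Figure D1:**
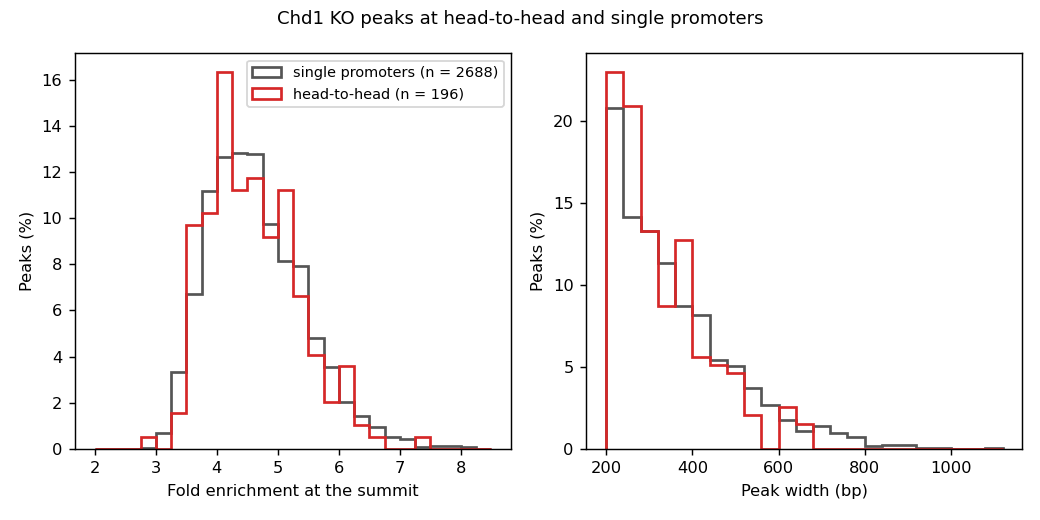
Share of peaks (%) by fold enrichment at the summit (left) and by peak width in bp (right), for 196 peaks at head-to-head promoters (red) and 2688 peaks at single promoters (gray) of Chd1 KO cells. The fold distributions overlap, with medians of 4.53 and 4.54, and the median widths are 296.5 and 327 bp.

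Next, the position of the summit relative to the 2 genes was examined. The summit lay inside the minus-strand gene in 71 members (36.2%, 29.8 to 43.2), inside the plus-strand gene in 87 (44.4%, 37.6 to 51.4) and between the TSSs in 38 (19.4%, 14.5 to 25.5). Averaged over members, 11.9% of the window that the rule allows lies between the TSSs. In pairs with TSSs at most 100 bp apart, 8 of 83 summits (9.64%, 4.97 to 17.9) lay between them, where 2.84% of the window lies. For spacings over 100 and up to 300 bp, 17 of 74 did (22.97%, 14.9 to 33.7, window 8.92%), and for wider spacings 13 of 39 (33.3%, 20.6 to 49.0, window 36.9%). The share between the TSSs was above its part of the window at spacings up to 300 bp, and its interval held that part at wider spacings. That part assumes an even spread of summits over the window, but summits inside a gene lay at a median of 192 bp from its start. Whether the share exceeds that of other DNA equally near a TSS was not tested. Most summits, 158 of 196 (80.6%), lay inside one of the genes. At single promoters, 72.7% of summits lay downstream of the TSS, but the allowed windows differ, since most of the window of a pair lies inside a gene and a single promoter has equal parts on both sides, so these shares were not compared.

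Summits inside a gene lay at a median of 192 bp from the start of that gene (147 to 221, n = 158). The rule limits this distance, because the summit had to lie within 1 kb of the farther TSS as well, so it was not compared with single promoters. The annotation placed 86 summits in a 5′ untranslated exon, 48 in an intron, 32 in a coding exon and 30 outside both genes, counting every protein-coding transcript of the pair. The peak as a whole covered both TSSs in 49 members, 1 of them in 58 and none in 89. Summits stood on the plus-strand side of the midpoint in 108 of 196 members (55.1%, 48.1 to 61.9).

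**Figure D2:**
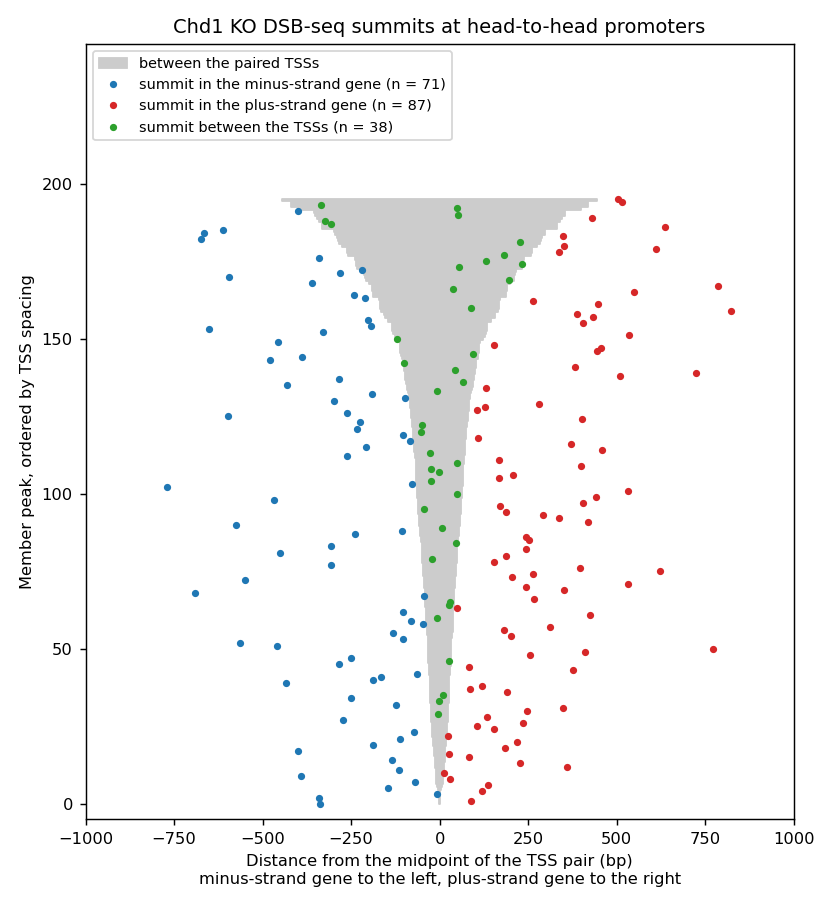
Summits of the 196 member peaks by distance in bp from the midpoint of the TSS pair, ordered from the closest (bottom) to the widest TSS spacing (top). The gray band marks the DNA between the TSSs, which held 38 summits (green), while 71 lay in the minus-strand gene (blue) and 87 in the plus-strand gene (red).

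In the 5 pairs with the smallest spacing, every summit lay inside a gene. With TSSs 2 to 12 bp apart, almost the whole allowed window lies inside a gene, so the choice of pairs nearly fixed this. Map4k5/Atl1 had TSSs 2 bp apart and a peak in each direction, with 15 and 17 reads and summits 427 bp apart. Map4k5 is a protein kinase, and Atl1 encodes atlastin, a GTPase that shapes the endoplasmic reticulum. 5730494M16Rik/AW554918 (3 bp) also had 2 peaks, with 21 and 18 reads, both in 5730494M16Rik. Dhrs1/2610027L16Rik (3 bp) had 20 reads in a coding exon of 2610027L16Rik, 117 bp from its start. Zdhhc3/Exosc7 (10 bp) had 15 reads on the side of Zdhhc3, a palmitoyltransferase, rather than of Exosc7, a subunit of the RNA exosome. 4430402I18Rik/Ppapdc2 (12 bp) had 16 reads in a coding exon of Ppapdc2. Of these 7 summits, 6 lay 87 to 338 bp inside a gene, and the 18-read peak of 5730494M16Rik lay 6 bp inside.

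The limits of the rule cut through few peaks. Just inside the spacing limit were 2810408A11Rik/Neurl4 (891 bp, 21 reads, fold enrichment 3.91) and Tor1aip1/Tor1aip2 (846 bp for the farther of 2 identifiers of Tor1aip2, 21 reads, 5.24). Just outside were Rpl7/Rdh10 (1112 bp, 25 reads, 4.92) and Tshz1/Zadh2 (1596 bp, 23 reads, 4.15). For the distance from summit to the farther TSS, Cdc40/Wasf1 (989 bp, 22 reads) and Ggps1/Arid4b (977 bp, 20 reads) were just inside. Srsf7/Ttc39d (1032 bp, 18 reads) and Efnb2/4921522P10Rik (1056 bp, 19 reads) were just outside.

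Among the 190 pairs, 11 had 2 member peaks and none had 3 or more. In 6 of the 11 the peaks stood on opposite sides, with 1 summit in each gene. The summits lay farthest apart at Hnrnpk/Rmi1, 1042 bp, with 19 reads at both, and a long transcript of Hnrnpk also spans the summit on the side of Rmi1. Hnrnpk encodes an RNA-binding protein, and Rmi1 is a subunit of the BLM helicase complex that dissolves recombination intermediates. Foxa3/Sympk followed with 848 bp, 20 reads between the TSSs and 19 reads inside Sympk, a scaffold of mRNA 3′ end processing. At Dnajb4/Fubp1 the summits were 793 bp apart, with 22 reads inside the chaperone gene Dnajb4 and 18 inside Fubp1. At Mrpl40/Hira they were 599 bp apart, with 22 reads inside Mrpl40, of the mitochondrial ribosome, and 24 inside Hira, a chaperone of histone H3.3. At Thap4/Atg4b both summits lay inside Thap4, 461 bp apart, with 20 and 22 reads, and none lay inside Atg4b, a protease of autophagy. The other 179 pairs had a single peak, and 184 of the 190 pairs did not have a summit in each gene.

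Which of the 2 genes held the break peak was then compared with gene length, taken as the mean length of protein-coding transcripts. The summit lay on the side of the longer gene in 121 of 196 members (61.7%, 54.8 to 68.3). Among the 124 members whose gene lengths differed at least 2-fold, the share was 66.9% (58.3 to 74.6), and among the 127 members with the summit at least 150 bp from the midpoint it was 66.1% (57.5 to 73.8). At Zswim7/Ttc19 the summit lay in the longer gene, 36.7 kb against 14.2 kb. Nos1ap/Gm10174 went the other way, with the summit in the 0.858-kb gene. In 68 of the 196 members a partner had a clone or predicted-gene symbol. Such annotations can be very short, such as Gm3625 with 0.102 kb beside Itsn2 with 102 kb. Whether the share holds without these members was not tested.

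The same 127 members allowed a comparison within the pair. The 300 bp at the summit were set against the 300 bp at the mirrored position, at equal distance from the midpoint on the side of the partner gene. GC content was higher at the summit in 117 of 127 members (92.1%, 86.1 to 95.7), with a median of 75.3% (range 59.7 to 84.0) against 59.0% (31.7 to 80.0). The median difference was 17.3 percentage points (13.7 to 20.0). The longest run of G and C was longer at the summit in 114 members and equal in 2, with medians of 18 bp and 9 bp. The ratio of observed to expected CpG, a measure of CpG islands, was higher at the summit in 104 members, with medians of 0.929 and 0.686. Fancf/Gas2 is an example. The summit, with 20 reads, lay 518 bp inside Fancf, where GC content was 74.7% and the longest run 15 bp, and the mirrored position in Gas2 had 37.0% and 5 bp. At Tor1aip1/Tor1aip2 the values were 73.0% and 35.0%, with runs of 18 and 3 bp. At Uhmk1/4930500M09Rik they were 76.0% and 31.7%, with runs of 18 and 4 bp.

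**Figure D3:**
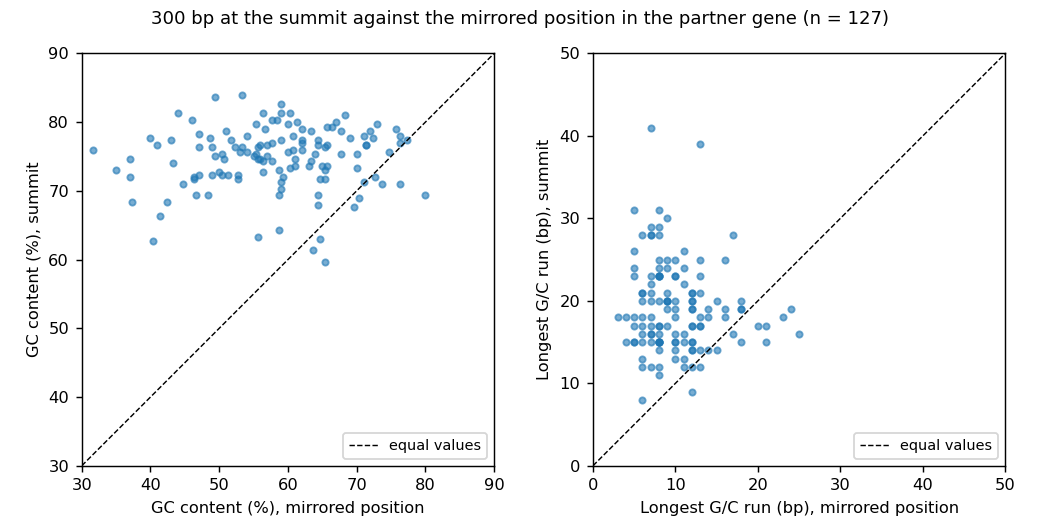
GC content (%, left) and longest run of G and C (bp, right) in 300 bp, for the 127 members with a summit at least 150 bp from the midpoint. The vertical axis gives the summit, and the horizontal axis the mirrored position on the side of the partner gene. The dashed line marks equal values, and 117 points on the left and 114 on the right lie above it.

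In contrast, a difference in strand asymmetry between the sides was not detectable. More G than C was found in 92 of 127 members at the summit (72.4%) and in 88 at the mirrored position (69.3%). Each position was read in the direction of the gene on its side of the midpoint, also where it lay between the TSSs. The difference was 3.15 percentage points (−7.97 to 14.2), with an interval that leaves out the pairing of both positions within a member. No library without break labeling was analyzed, so the part of GC content in the recovery of fragments was not tested.

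Under the peaks themselves, members were slightly poorer in G and C than single-promoter peaks. The median GC content of the peak was 75.6% (59.7 to 83.6) at members and 76.7% at single promoters, and a member was higher in 40.5% of comparisons (36.6 to 44.4). A run of G and C of at least 20 bp lay under 81 of 196 member peaks (41.3%, 34.7 to 48.3) and under 52.2% of single-promoter peaks, a difference of −10.9 percentage points (−17.8 to −3.66). Runs of at least 12 bp were found under 188 members (95.9%) and 97.2% of single-promoter peaks. Runs were searched over the whole peak, and member peaks were narrower (median 296.5 against 327 bp). The part of peak width in these differences was not tested. The CpG ratio did not differ detectably, with medians of 0.951 and 0.942 and a member higher in 50.4% of comparisons (46.2 to 54.6).

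Whether head-to-head promoters had peaks more often was asked over all 1081 pairs. A summit within 1 kb of any TSS was found for 15.7% of all 22372 protein-coding genes, and for 411 of the 2141 genes in head-to-head pairs (19.2%, 17.6 to 20.9). With windows of equal length, 197 of 1081 pairs had a peak within 1 kb of the midpoint (18.2%, 16.04 to 20.6), against 14.1% of 19123 single promoters, a difference of 4.17 percentage points (1.92 to 6.63). The windows differ in content, since that of a pair lies mostly inside genes and that of a single promoter has equal parts on both sides. The part of this in the shares and odds ratios was not tested. The odds ratio was 1.36 (1.16 to 1.60). Pairs were also richer in G and C, with a median of 54.6% within 1 kb against 50.6%. Within strata of 5 percentage points of GC content, the pooled odds ratio fell below 1, to 0.765 (0.641 to 0.912). At 55 to 60% GC, 20.8% of 346 pairs and 29.2% of 3416 single promoters had a peak, and at 60 to 65% the shares were 45.8% of 142 and 54.9% of 1494. At lower GC content the share in pairs was not the lower one. At 50 to 55% it was 10.6% of 369 pairs and 9.21% of 4776 single promoters. At 45 to 50% it was 2.23% of 179 and 2.01% of 4179. When GC content was taken within 0.25 kb of the centre, the pooled odds ratio was 1.03 (0.854 to 1.24), and within strata of the longest run it was 0.901 (0.751 to 1.08). The higher share in pairs was therefore found only without adjustment for base composition, and the lower share only for GC content over the wider window, whether in strata or in a logistic fit (0.734, 0.613 to 0.878).

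**Figure D4:**
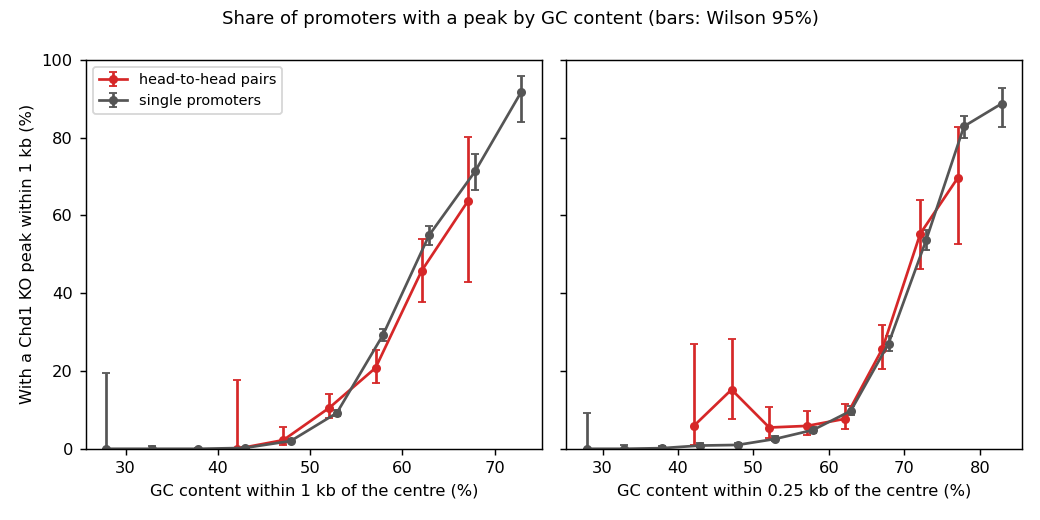
Share (%) of head-to-head pairs (red) and single promoters (gray) with a Chd1 KO peak within 1 kb, by GC content (%) within 1 kb (left) and within 0.25 kb (right) of the centre, for strata with at least 10 promoters. Bars are Wilson 95% intervals, and at 55 to 60% on the left the share is 20.8% for pairs and 29.2% for single promoters. At 50 to 55% on the left it is 10.6% for pairs and 9.21% for single promoters.

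Among the pairs themselves, those with a peak had longer runs of G and C than those without. The median longest run within 1 kb was 20 bp in 197 pairs with a peak and 14 bp in 884 without, and a pair with a peak had the longer run in 82.6% of comparisons (78.9 to 86.3). A peak was found in 2 of 241 pairs whose longest run was under 12 bp (0.830%, 0.228 to 2.97) and in 46 of 87 pairs with a run of at least 24 bp (52.9%, 42.5 to 63.0). In single promoters the latter share was 66.2% (63.8 to 68.5), above the interval of the pairs. At 20 to under 24 bp the shares were 45.3% of pairs and 46.4% of single promoters. At 16 to under 20 bp they were 23.6% and 25.7%. At 12 to under 16 bp they were 8.18% and 7.31%, and under 12 bp 0.830% and 0.168%. In these shorter classes the intervals overlapped. The class of at least 24 bp has no upper limit, with runs up to 47 bp in pairs and 66 bp in single promoters. Length within it was not matched. GC content separated the pairs in 76.6% of comparisons (72.5 to 80.7), with medians of 59.1% and 53.8%. The distance between the TSSs did not separate them, with medians of 131 and 136 bp and 49.2% of comparisons (44.8 to 53.7). Of the pairs at most 200 bp apart, 19.3% of 706 had a peak, against 21.6% of 116 pairs over 500 bp apart, a difference of −2.29 percentage points (−11.1 to 4.91). With a window of 0.5 kb around the midpoint the sign turned, to 6.64 (−0.869 to 12.1), with neither interval excluding 0.

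**Figure D5:**
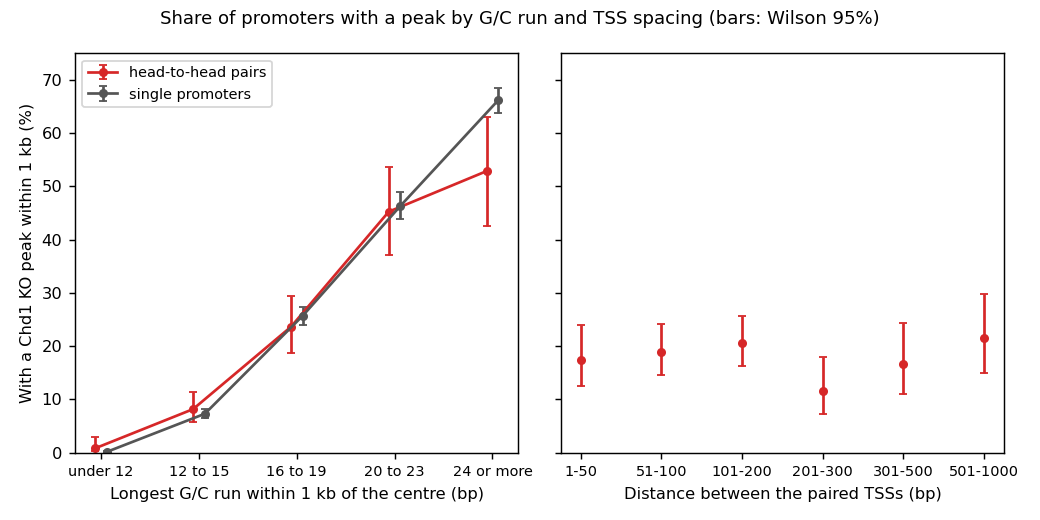
Share (%) of promoters with a Chd1 KO peak within 1 kb by the longest run of G and C within 1 kb (bp, left; head-to-head pairs red, single promoters gray) and share of head-to-head pairs by the distance between their TSSs (bp, right). Bars are Wilson 95% intervals, and the share of pairs rises from 0.830% to 52.9% with run length, whereas by TSS distance it lies between 11.5% and 21.6%.

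Genes in pairs with a peak were also somewhat longer. The median of the mean log length of a pair corresponded to 17.3 kb with a peak and 13.5 kb without, a log2 ratio of 0.36, and a pair with a peak was longer in 56.2% of comparisons (51.7 to 60.8). In pairs above the median GC content (157 pairs with and 382 without a peak) the log2 ratio was 0.53, with 58.3% (52.9 to 63.7).

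Motifs of factors known from divergent promoters were searched in 300 bp at the summit, as exact letters on either strand. GGGCGG, the GC box of SP1, was found at 87.8% of member summits, 90.6% of single-promoter summits and in 45.3% of windows of the same length at all 45974 protein-coding TSSs. CCAAT of NFY was found at 16.3% of member summits and 12.4% of single-promoter summits, both below the 33.2% at all TSSs. Summit windows and TSS windows lie at different positions, since most summits lay inside a gene. CCGGAAG of ETS factors such as GABP was found at 8.16% of member summits, 6.96% of single-promoter summits and 10.7% of TSS windows. AAGATGGC of YY1 was the only 1 of the 9 motifs whose difference between member and single-promoter summits had an interval that excluded 0. It was found at 9 of 196 member summits (4.59%), 2.05% of single-promoter summits and 3.60% of TSS windows. The difference from single-promoter summits was 2.55 percentage points (0.304 to 6.48). The 9 intervals were not corrected for their number, and the rule limits how far member summits lie from a TSS. The NRF1 letters given above were found at 3.06% of member summits, 2.12% of single-promoter summits and 2.86% of TSS windows. For the CREB letters these shares were 0.510%, 1.19% and 1.95%. For the E-box, CACGTG, they were 7.14%, 6.85% and 7.09%. The TATA box, searched as TATAAA, was found at 1.02% of member summits, 0.930% of single-promoter summits and 9.16% of TSS windows. The letters of ZNF143, ACTACAATT, were found at none of 196, and in 0.348% of TSS windows.

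At the midpoint of the pairs, rather than at the summit, the picture of motifs differed by peak. GGGCGG was found in 77.2% of 197 pairs with a peak and 63.2% of 884 without, a difference of 13.9 percentage points (6.85 to 20.1). CCAAT was found in 32.0% and 43.1%, a difference of −11.1 (−18.1 to −3.59). ETS letters were found in 26.4% and 27.8%, which was not a detectable difference (−1.43, −7.86 to 5.73). A match of letters says only that the letters are present, and GC-rich letters follow base composition.

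Members by function are given as counts beside the share over all genes in head-to-head pairs, of which 375 of 2141 (17.5%) stood in a member pair. Of 77 genes of DSB repair and the checkpoint, 26 stood in a head-to-head pair and 4 of these in a member pair (15.4%). Wrn/Purg, with the RecQ helicase gene of Werner syndrome, had 28 reads and a fold enrichment of 5.58, with the summit between TSSs 798 bp apart. 1300017J02Rik/Topbp1 had 24 reads and 4.88, with the summit 142 bp inside Topbp1, an activator of the ATR checkpoint kinase. Fancf/Gas2 had 20 reads and 4.86, inside the Fanconi anemia gene Fancf. Dclre1b/Ap4b1 had 15 reads and 3.74, with the summit between the TSSs next to Dclre1b, a nuclease of telomeres and crosslink repair.
The other repair genes in head-to-head pairs had no member peak. These pairs included Top3a/Smcr8, Wrap53/Trp53, Brca1/Nbr1, Gen1/Smc6, Xrcc3/Zfyve21, Acot13/Tdp2, Xrcc4/Tmem167, Rad17/Taf9, Brix1/Rad1, Recql4/Lrrc14, Pppde2/Xrcc6, Mcm4/Prkdc, Dclre1a/Nhlrc2, Hscb/Chek2, Tmem111/Fancd2, Palb2/Dctn5, Lig4/Abhd13, Atm/Npat, Mtcp1/Brcc3 and Mospd2/Fancb.

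Of the pairs widely used as examples of divergent promoters and reported here, 1 had a member peak. Hspd1/Hspe1, which encode the mitochondrial chaperonin and its cochaperonin, had 22 reads and a fold enrichment of 4.39, 186 bp inside Hspd1. No member peak lay at Atm/Npat, Brca1/Nbr1, Wrap53/Trp53, Mcm4/Prkdc, Gart/Son, Surf1/Surf2, Col4a4/Col4a3, Psmb9/Tap1 or Mrps12/Sars2.

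The counts for genes of DNA replication and for chromatin modifiers were too small to set these lists apart from the 17.5% over all genes in head-to-head pairs. For DNA replication, 2 of 17 genes in head-to-head pairs stood in a member pair. Pole, the catalytic subunit of DNA polymerase epsilon, had 23 reads and a fold enrichment of 4.98 inside its coding exon, and Dbf4, the activator of the Cdc7 kinase, had 23 reads and 5.15 between its TSS and that of Slc25a40. Of 108 chromatin modifiers and remodelers, 48 had a peak at any TSS (44.4%, against 15.7% of all protein-coding genes). Of the 108, 9 stood in a head-to-head pair and 1 of these in a member pair, the SET domain gene Mll5 (19 reads, fold enrichment 4.78). None of 27 replication-dependent histone genes in head-to-head pairs was a member, which allows a share of up to 11.1%, and none of the 67 annotated histone genes had a peak.

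For housekeeping functions the counts were 4 of 24 for oxidative phosphorylation, 1 of 24 for the mitochondrial ribosome (Mrpl40), 1 of 14 for the cytosolic ribosome, 3 of 35 for mRNA processing and 6 of 30 for ubiquitin and the proteasome. Uqcrh, a subunit of complex III, had 26 reads and a fold enrichment of 5.44, with the summit in an intron of its partner Lrrc41. Atp5h, of ATP synthase, had 22 reads and 4.64, with the summit in its partner Kctd2. Cox4nb and Cox4i1 form a pair with 26 reads and 3.79 between their TSSs, and Cox4nb is on the list by its name only. Rpl36al (18 reads, 4.54) and Hnrnpd (18 reads, 3.63) held the summit themselves, as did Hnrnph3 (18 reads, 4.26) and Hnrnpk. Psma4 and Psma7, of the proteasome, had 17 and 19 reads, with the summit inside Psma4 and, for Psma7, in the partner Ss18l1. Ube2k, a ubiquitin-conjugating enzyme, had 17 reads between the TSSs, and the F-box gene Fbxo45 had 19 reads inside it.

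Of the families of transcription factors, 5 of 24 zinc finger (Zfp) gene identifiers, Zfp664 being listed under 2, and 2 of 5 homeobox, forkhead, Sox and T-box genes of head-to-head pairs stood in member pairs. Foxm1, a forkhead factor of the cell cycle, had 35 reads and a fold enrichment of 6.06, with the summit 138 bp inside it, and Foxa3 was in the Foxa3/Sympk pair above. Zfp319 had 29 reads and 4.85. The summits at Ccdc92/Zfp664 and 1300018I17Rik/Zfp276 lay in the partner gene, with 24 and 22 reads. Solute carriers gave 4 of 21, with 20 reads at Slc39a7/Rxrb and 21 at Slc16a6/Arsg. None of the 19 pluripotency factors stood in a head-to-head pair, although 5 of them had a peak. Naming only the gene with the nearest TSS would have given 192 genes in place of 375.

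Members were spread over all 19 autosomes, from 3 on chromosome 15 to 19 on chromosome 8. Over all chromosomes, 18.2% of pairs and 14.1% of single promoters had a peak. On chromosome 16, 11 of 32 pairs had a peak (34.4%, 20.4 to 51.7), and on chromosome 15 it was 3 of 35 (8.57%, 2.96 to 22.4). The intervals of these chromosomes overlap, and a difference between chromosomes was not tested. Among single promoters the shares were 13.5% on chromosome 16 and 16.9% on chromosome 15. On the X chromosome none of 29 pairs had a peak, which allows up to 10.3%, and 7 of 829 single promoters there had one (0.844%).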

How the data were processed

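DSB-seq was measured in Chd1 KO and control ES cells, 2 replicates each, and the deposited peak lists, 1 per genotype, were analyzed. The authors mapped reads to mm9 with Bowtie2, removed reads with mapping quality under 13 and duplicates, combined replicates, and called peaks with MACS2 (reads extended to 200 bp, q-value cutoff 0.05, blacklisted regions removed). The stated options name no input library. The fold enrichment is a ratio the authors computed over local background. Deposited values of the authors also include the −log10 p-value, and as scores the −log10 q-value and an integer made from it. ChIP-seq was not analyzed here.

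Reads at the summit were recovered from fold enrichment and Poisson p-value (error of −log10 p at most 7.25e-05). On simulated data, 2000 of 2000 read counts and 1000 of 1000 gene pairs were recovered. The GENCODE M1 annotation and the genome sequence are of the same build. For several TSS pairs of 2 genes, the closest was used. Single promoters were represented by the outermost TSS. Intervals are 95% (Wilson for shares, Newcombe for differences of shares, Mantel-Haenszel for odds ratios over strata with at least 10 promoters of each kind, Hanley-McNeil for shares of comparisons, order statistics for medians). For a count of 0 the limit is 3 counts. All cover counting error only.

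The members and gene lists were chosen with earlier results of these data known. Named were the 8 pairs with the highest fold enrichment, the 5 closest pairs, 2 pairs on each side of the spacing limit, the 5 pairs with 2 peaks farthest apart, all repair and well-known pairs except some not reported here, and up to 4 examples per other list by fold enrichment. Uhmk1/4930500M09Rik, Fbxl6/Gpr172b, the neighbors of the summit window and the printed G and C runs were added after their values were seen. Intervals between TSSs up to 300 bp were printed, and those inside annotated exons or of 1 base were left out. Alternatives changed the q-value cutoff, peak position, spacing, windows, TSSs, chromosomes, gene length and GC measure, and 2 were added after seeing the data. Python 3.11.15, NumPy 2.4.6, pandas 2.3.3, SciPy 1.17.1, statsmodels 0.14.6, pysam 0.24.0, samtools 1.23.1 and Matplotlib 3.10.9 were used.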

Additional observations from a re-analysis of the deposited data

How the results depend on the processing

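Of 64 recomputed main results, 60 were counted as unchanged. For differences and ratios this means the same direction and the same answer on whether the interval excluded no difference. Shares had to stay within the reported interval, and counts within a set fold range. The share of pairs with a peak was 15.6% when the peak had to lie within 0.5 kb of the midpoint, below the interval of the reported 18.2%. The same window turned the difference between closely and widely spaced pairs to 6.64 percentage points. The odds ratio within GC strata was 1.03 with GC content within 0.25 kb, the opposite direction to 0.765, and 0.901, with an interval that held 1, in strata of the longest run. The run strata and the collapse of duplicate gene identifiers were chosen after seeing the data. The cause of these changes was not tested. The number of member peaks lay between 144 and 198 under 7 alternatives, against the reported 196. With windows of 200 bp the difference in motif share was −1.44 percentage points for NFY and −0.0957 for the E-box, and with 400 bp it was −0.430 for the TATA box, each opposite in sign to the reported value and with an interval that held 0. Sites with fewer reads than 13 at the summit were not in the Chd1 KO list. No paired analysis was possible because the replicates were combined before peaks were called, and for the same reason no replicate could be left out.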
